A study of Homo sapiens with 6 samples.

Results

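Glutamate and GABA-A receptor subunits are the proteins through which nerve cells read their main excitatory and inhibitory transmitters. The genes described here were all protein-coding genes named as AMPA (GRIA), kainate (GRIK), delta (GRID), NMDA (GRIN) or metabotropic (GRM) glutamate receptor subunits, or as GABA-A receptor subunits (GABR). The symbol rule found 45 such genes among the 60664 genes counted, 26 for glutamate and 19 for GABA-A receptors. They were measured by RNA-seq of polyadenylated RNA from D283 Med cells, a human Group 3 medulloblastoma line in which MYC is amplified. Cells of all 6 libraries had received an LNA GapmeR, a short antisense molecule by which RNase H cuts its matching RNA. The GapmeR had a scrambled sequence in 3 libraries (SCR, here control) and targeted the lncRNA lncMB3 in the other 3 (KD, here knockdown). D283 Med is 1 cell line grown without other brain cells, and no label states that the 3 libraries per group were separate cultures. P-values therefore rest on library-to-library spread alone, which may be technical. The level of lncMB3 itself was not analysed here, so directions rest on the group labels.

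AMPA, kainate and NMDA receptors are tetrameric ion channels that open when glutamate binds, whereas metabotropic glutamate receptors act through G proteins. An NMDA receptor needs the subunit encoded by GRIN1. GABA-A receptors are pentameric chloride channels, most often of alpha and beta subunits with a gamma subunit. GABRA5, which encodes the alpha5 subunit, is a well known marker of Group 3 medulloblastoma.

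Total gene counts ran from 7765826 in knockdown library 1 to 20035834 in control 2, so knockdown library 1 gave the least precise counts for low genes. Of 14673 genes tested with edgeR, 31.7% had an adjusted p under 0.05, with 15.9% higher after knockdown and 15.9% lower (2328 and 2329 genes). With upper-quartile scaling 1773 of 4576 called genes were higher, and with a correction for gene span 2952 of 4915. All 7 markers of Group 3 medulloblastoma passed the low-count filter, and 5 of them fell and 0 rose. Their summed level was 2777 to 3031 CPM (counts scaled to library size) in control libraries against 2612 to 2688 CPM with the lncMB3 GapmeR. Of the neuronal markers 8 of 12 passed the filter, while STMN2 and ELAVL4 had no count. The summed level of the neuronal markers was 383 to 420 CPM among controls and 264 to 295 CPM after knockdown, with 3 of the 8 lower and 0 higher. Of the oligodendrocyte lineage markers 2 of 5 measured were lower, with sums of 849 to 941 CPM and 778 to 824 CPM, and MBP and MOG had no count. Mesenchymal, endothelial, immune and epithelial markers summed to 22.5 to 25.1 CPM among controls and 17.3 to 20.3 CPM after knockdown, with 2 of 4 measured lower and with COL3A1 and CDH5 at 0. Of the astrocyte markers GJA1 alone was measured (log2 change -0.09 ± 0.09, adjusted p = 0.469). Of the granule cell lineage markers NEUROD1 fell 2.09-fold from 34.3 ± 2.36 to 16.6 ± 1.83 CPM (adjusted p = 3.26e-05), ZIC1 was at 0.14 ± 0.08 on the log2 scale of change (adjusted p = 0.205), and ATOH1 and BARHL1 were at 0. The lineage sum was 91.9 to 95.0 CPM and 77.1 to 87.2 CPM. Whether the changes of these markers contribute to those of the receptors was not tested. In bulk RNA, fewer cells of a type and less RNA per cell cannot be told apart.

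D283 Med cells expressed 22 of the 45 subunits, where expressed means at least 0.546 CPM in 3 libraries or more. A further 14 were at trace, with no more than 20 counts in any library, and 9 had no count in any library. A count of 0 allows up to 0.147 to 0.390 CPM, depending on the library, at a limit of 3 counts, which covers counting error only. The 9 without a count were GRIA3, GRIA4, GRIN3A, GRM3, GRM4, GRM5, GRM6, GABRD and GABRR1. Of the 26 glutamate receptor genes 10 were expressed, and of the 19 GABA-A receptor genes 12. Levels between genes were compared per kilobase of merged exon. On that scale GABRA5 was highest in the controls at 17.8 ± 1.89 CPM per kb (SD, n = 3 here and below). GRIK3 (4.30 ± 0.331 CPM per kb) and GRIK4 (3.99 ± 0.578) were lower. Within each control GRIK3 was above GRIK4, at 50.7%, 46.6% and 48.0% of the summed kainate level per kb against 41.9%, 45.5% and 46.6%. That order depends on the length used, as given below. GRID1 stood at 1.52 ± 0.053 CPM per kb and GABRA3 at 1.29 ± 0.132, and 15 of the 22 expressed subunits were below 1 CPM per kb. Several low subunits, such as GRIA1, GRM8 and GABRE, were only just above the filter.

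**Figure D1:**
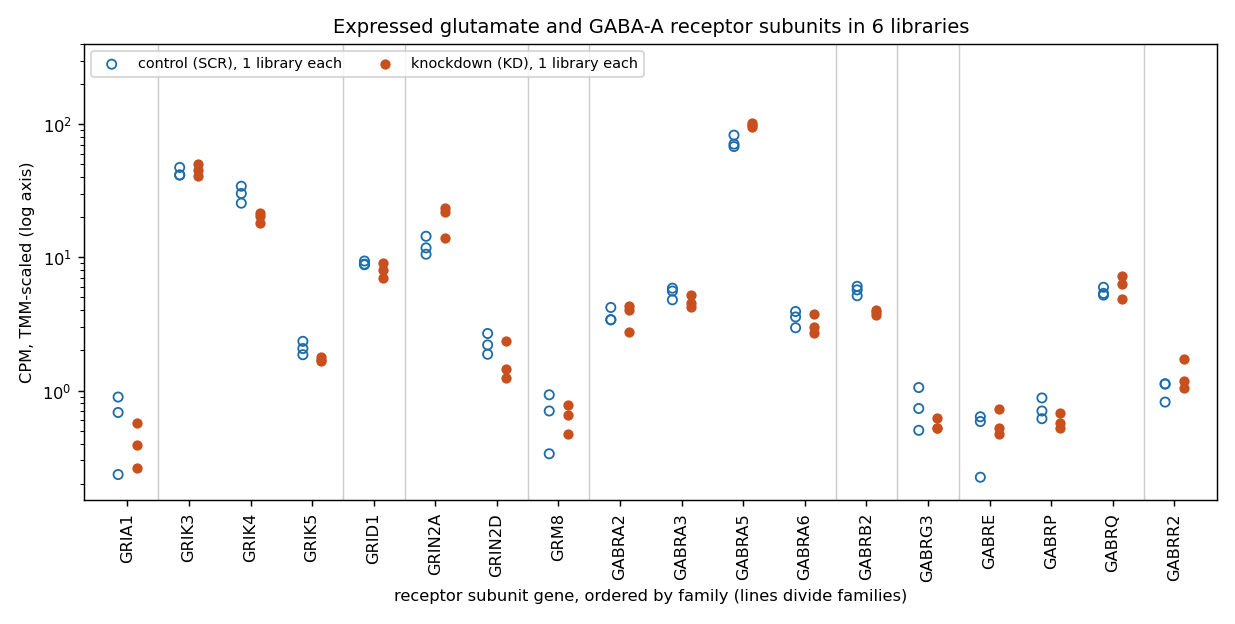
Level of 18 of the expressed subunits in CPM (log axis) in every library, with open circles for the 3 controls and filled circles for the 3 knockdown libraries, ordered by family. GABRA5, GRIK3, GRIK4 and GRIN2A lie above 10 CPM in the controls, and GRIA1, GRM8, GABRG3, GABRE and GABRP have a control mean below 1 CPM.

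Of the 22 expressed subunits 5 passed the threshold, 2 higher and 3 lower in the knockdown. With a correction for gene span the counts were 4 higher and 0 lower. GABRA5 and GRIN2A rose, by 1.33-fold and 1.6-fold, and GRIK4 and GABRB2 were among those that fell, by 1.51-fold and 1.47-fold. The 5 are 22.7% of the expressed subunits, below the 31.7% called among all genes tested. The median log2 change of the 22 was -0.20, against 0.00 over all genes tested, and 14 of them lay below 0. In 5 subunits the 3 libraries of one group did not overlap those of the other, 22.7% against 46% of all genes tested. GABRA5, GRIK4, GABRB2 and GRIK5 were among these. The 17 subunits not called had log2 changes of at most 0.56 in size, with standard errors (SE) of up to 0.51, so moderate changes of the low ones could not be detected at this depth.

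**Figure D2:**
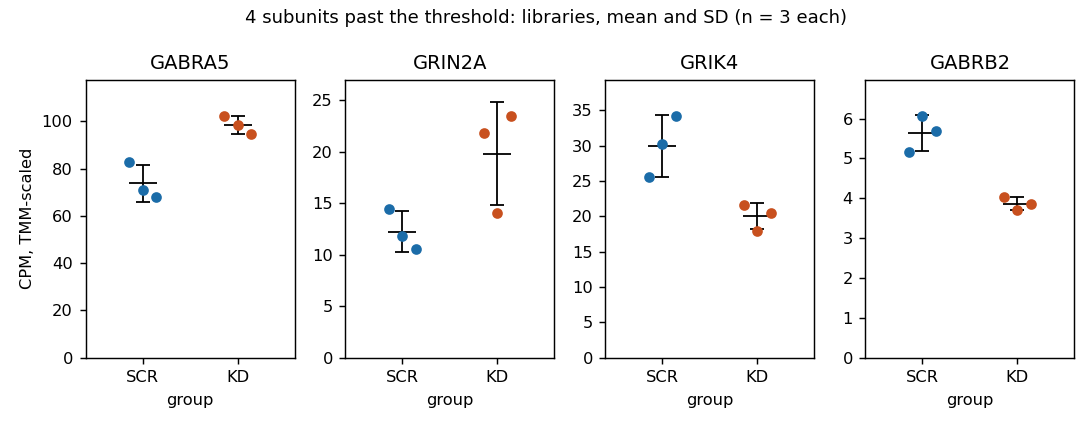
CPM in each library for 4 subunits past the threshold, with the mean and SD of the 3 libraries of each group (vertical axes start at 0 and differ between panels). Of these 4 the groups overlap for GRIN2A alone, where knockdown library 2 lies at 14.1 CPM and control 1 at 14.4 CPM.

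AMPA receptors carry most fast excitatory transmission, and their 4 subunit genes were close to silent. GRIA1 had 4, 14 and 16 counts among controls and 3, 5 and 11 after knockdown. Its log2 change was -0.56 ± 0.51 (SE, adjusted p = 0.426), with overlapping groups. GRIA2, whose subunit limits the calcium permeability of the channel, had 1, 5 and 2 counts among controls and 0, 1 and 0 after knockdown. GRIA3 and GRIA4 had none. GRIA2 is shown by its promoter because 1 of its 3 RefSeq start windows holds the RE1 element, the binding sequence of the repressor REST. The consensus RE1, with its 2 middle bases left free, was searched on both strands over windows from 250 bases before to 50 bases after each start (RefSeq, GRCh38.p14). The match, in capitals, lies on the strand opposite to the gene in the window chr4:157220369-157220668 (+ strand).
GRIA2: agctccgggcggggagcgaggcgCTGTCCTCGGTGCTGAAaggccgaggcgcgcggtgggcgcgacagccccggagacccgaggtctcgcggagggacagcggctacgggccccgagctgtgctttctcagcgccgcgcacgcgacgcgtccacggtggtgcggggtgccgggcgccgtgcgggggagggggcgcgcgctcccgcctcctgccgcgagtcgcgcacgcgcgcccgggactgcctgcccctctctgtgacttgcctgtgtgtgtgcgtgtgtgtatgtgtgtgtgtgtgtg
An exact match was found in 5 of 35116 windows of all genes (0.0142%), and in 1 of the 49 windows that the table holds for 32 of the 45 subunits. Sites that depart from the consensus at any fixed base were not counted, so these shares do not measure how common RE1 is. REST was expressed at 42.8 ± 1.5 CPM among controls and 43.8 ± 6.64 CPM after knockdown (log2 change 0.03 ± 0.11, adjusted p = 0.872). A match of letters is a description of the window and was not tested for binding.

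Kainate receptors combine GRIK1 to GRIK3 subunits with GRIK4 or GRIK5, which raise the affinity for glutamate, and GRIK3 and GRIK4 carried this family. GRIK4 (chromosome 11, 120511700 to 120988904, GRCh38) was at 25.5, 30.2 and 34.2 CPM among controls and 21.6, 18 and 20.5 CPM after knockdown. All 3 knockdown libraries were below all controls. GRIK4 fell 1.51-fold (log2 change -0.59 ± 0.12, adjusted p = 0.00214), a call lost with the gene span correction (log2 change -0.27, adjusted p = 0.0574). GRIK3 (chromosome 1, 36795527 to 37034129) was at 41.6, 41.5 and 47.3 CPM among controls and 50.2, 41.1 and 45.5 CPM after knockdown. Its groups overlapped, and the log2 change was 0.06 ± 0.10 (adjusted p = 0.672). GRIK5 had the same direction as GRIK4 without passing the threshold, at 2.34, 1.86 and 2.07 CPM among controls and 1.69, 1.67 and 1.77 CPM after knockdown (adjusted p = 0.407). GRIK1 and GRIK2 were at trace. The share of GRIK3 in the summed kainate level per kilobase was 48.4% ± 2.10 among controls and 59.2% ± 0.870 in the knockdown, and that of GRIK4 was 44.7% ± 2.48 and 35% ± 0.450. With the longest transcript as the length, the GRIK3 share was 44.6% and 55.4%, so which of both genes led in controls depends on the length used. The GRIK3 to GRIK4 ratio of CPM, a pair chosen after its values were seen, was 1.63, 1.38 and 1.38 in the controls. It was 2.33, 2.28 and 2.22 after knockdown, with no overlap (exact permutation test, 2-sided, p = 0.1, the smallest that 3 against 3 libraries can give). It was 1 of 3 ratios computed, each with an exact permutation p = 0.1 before and after Benjamini-Hochberg adjustment over the 3.

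Promoter windows are printed for the called subunits that the RefSeq table holds, namely GRIK4 with 2 starts, GRIN2A and GABRB2. Capitals mark the GC box GGGCGG on either strand, the site of SP1-like factors. The windows are chr11:120511498-120511797 and chr11:120564184-120564483 (+ strand) for GRIK4, chr16:10182018-10182317 (- strand) for GRIN2A and chr5:161546676-161546975 (- strand) for GABRB2.
GRIK4 start 1: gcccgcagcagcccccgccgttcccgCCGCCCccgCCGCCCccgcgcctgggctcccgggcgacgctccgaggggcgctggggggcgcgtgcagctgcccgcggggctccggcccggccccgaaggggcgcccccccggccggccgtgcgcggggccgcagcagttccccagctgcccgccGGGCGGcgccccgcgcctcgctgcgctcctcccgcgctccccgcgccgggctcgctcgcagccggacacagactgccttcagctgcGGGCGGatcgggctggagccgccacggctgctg
GRIK4 start 2: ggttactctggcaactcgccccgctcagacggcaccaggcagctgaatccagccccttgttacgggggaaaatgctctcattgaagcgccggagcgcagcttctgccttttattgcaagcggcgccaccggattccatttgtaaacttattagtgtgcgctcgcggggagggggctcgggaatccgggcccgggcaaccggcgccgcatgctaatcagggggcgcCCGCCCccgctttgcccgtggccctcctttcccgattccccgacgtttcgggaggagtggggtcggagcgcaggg
GRIN2A: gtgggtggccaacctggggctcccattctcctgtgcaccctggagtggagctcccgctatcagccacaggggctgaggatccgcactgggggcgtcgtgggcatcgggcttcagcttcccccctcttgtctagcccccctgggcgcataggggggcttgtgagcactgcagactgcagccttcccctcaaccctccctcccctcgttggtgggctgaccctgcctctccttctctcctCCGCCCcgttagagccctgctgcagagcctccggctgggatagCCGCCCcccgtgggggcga
GABRB2: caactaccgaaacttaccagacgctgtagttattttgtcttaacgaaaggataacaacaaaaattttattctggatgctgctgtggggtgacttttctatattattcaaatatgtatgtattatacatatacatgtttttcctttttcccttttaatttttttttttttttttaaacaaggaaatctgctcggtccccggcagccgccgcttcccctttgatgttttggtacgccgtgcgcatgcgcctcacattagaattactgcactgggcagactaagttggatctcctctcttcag
The first GRIK4 window had 4 GC boxes, 84.3% G and C and 49 CpG dinucleotides, and the second had 1 GC box, 64.7% and 29. GRIN2A had 2 GC boxes, 68.3% G and C and 13 CpG. GABRB2 had no GC box, 39% G and C and 11 CpG, against a median of 58.7% and 14 over all windows. A GC box occurred in 45% of all 35116 windows, in 21 of the 49 windows of the subunits and in 11 of the 15 expressed subunits with a window. The last is a count of genes with a match in any of their windows, so it cannot be set against a share of windows. The E-box CACGTG was found in windows of GRM4 and GRM5 (7.26% of all windows) and the CRX and OTX core TAATCC in that of GABRR3 (6.36%). None of these 3 genes was expressed. The falling genes GRIK4 and GABRB2 therefore differed widely in base composition, and neither the E-box nor the OTX core was found in the 15 expressed subunits' windows.

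Delta receptors resemble other glutamate receptors in sequence but link synapses through cerebellins. GRID1 was at 8.90, 8.80 and 9.39 CPM among controls and 9.11, 6.99 and 8.08 CPM after knockdown (log2 change -0.19 ± 0.14, adjusted p = 0.31). CBLN1, a cerebellin, was at 112 ± 4.94 CPM among controls and 125 ± 1.74 CPM after knockdown (log2 change 0.16 ± 0.08, adjusted p = 0.135).

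NMDA receptor genes were led by GRIN2A, while the obligatory subunit gene GRIN1 was at trace. GRIN2A (chromosome 16, 9753404 to 10182754) was at 14.4, 11.8 and 10.6 CPM among controls and 21.9, 14.1 and 23.5 CPM after knockdown. Knockdown libraries 1 and 3 were above all controls, and knockdown library 2 was below control 1. GRIN2A rose 1.6-fold (log2 change 0.68 ± 0.17, adjusted p = 0.00873). Without knockdown library 3 the log2 change was 0.49 and the call was lost (adjusted p = 0.0714). GRIN2D was at 1.87, 2.20 and 2.68 CPM among controls and 2.34, 1.46 and 1.25 CPM after knockdown (log2 change -0.52 ± 0.28, adjusted p = 0.181). GRIN1 had 4, 6 and 6 counts among controls and 2, 1 and 0 in the knockdown, and GRIN2B 6, 10 and 12 against 0, 5 and 3. Scaled to library size, the GRIN1 groups overlapped, with knockdown library 1 at 0.260 CPM and control 1 at 0.234 CPM. GRIN2B was at 0.351, 0.489 and 0.671 CPM among controls and 0, 0.261 and 0.156 CPM after knockdown. GRIN2C and GRIN3B were at trace as well, the latter with an exon that overlaps TMEM259 on the other strand. GRIN2A held 56.0% ± 7.33 of the family's level per kilobase among controls and 72.9% ± 5.86 in the knockdown.

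Metabotropic receptors of group I signal through phospholipase C and calcium release, and GRM5 of that group had no count. Of group II, GRM2 had between 1 and 4 counts per library and GRM3 none. Of group III, which lowers cyclic AMP, GRM8 passed the filter at 0.656 ± 0.30 CPM among controls and 0.634 ± 0.157 CPM after knockdown (adjusted p = 0.917). GRM7 was at trace, and GRM4 and GRM6 had no count.

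The alpha subunits of the GABA-A receptor, which with beta subunits form the GABA site, were dominated by GABRA5. GABRA5 (chromosome 15, 26866363 to 26949207) was at 82.7, 70.8 and 67.9 CPM among controls and 102, 98.4 and 94.7 CPM after knockdown. Every knockdown library was above every control, with control 1 nearest to them. The fitted log2 change was 0.41 ± 0.09 (adjusted p = 0.00384). Its share of the alpha family's level per kilobase was 85.8% ± 1.36 among controls and 90.1% ± 0.827 in the knockdown. GABRA2, GABRA3 and GABRA6 lay between 2.71 and 5.87 CPM in all libraries, with log2 changes from -0.21 for GABRA3 to 0.06 for GABRA2, and none passed the threshold. GABRA4 was at trace.

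Among the beta subunits, which with alpha subunits form the channel, GABRB2 fell. GABRB2 (chromosome 5, 161288429 to 161549044) was at 5.15, 6.06 and 5.70 CPM among controls and 4.03, 3.70 and 3.86 CPM after knockdown, with no overlap. It fell 1.47-fold (log2 change -0.56 ± 0.16, adjusted p = 0.0184). That call was lost in DESeq2 (adjusted p = 0.0566) and without control 2 (0.0887), control 3 (0.0556), knockdown library 2 (0.0514) or knockdown library 3 (0.0516), with log2 changes from -0.57 to -0.50 in these settings. It was also lost with the gene span correction, where the log2 change was -0.32 (adjusted p = 0.137). GABRB1 was at trace.

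Gamma subunits, which complete the common synaptic receptor and the benzodiazepine site, were low. GABRG1 had 2 counts in control 3 only. GABRG3 was at 1.05, 0.734 and 0.503 CPM among controls and 0.520, 0.626 and 0.521 CPM after knockdown (adjusted p = 0.432). Among the remaining subunits GABRQ (theta) was highest at 5.51 ± 0.399 and 6.16 ± 1.20 CPM (adjusted p = 0.619). GABRE (epsilon) and GABRP (pi) were below 1 CPM in every library, with adjusted p-values of 0.688 and 0.584. GABRR2, a rho subunit best known from the retina, was at 1.02 ± 0.174 CPM among controls and 1.31 ± 0.360 CPM after knockdown (adjusted p = 0.39). GABRD, the delta subunit of receptors outside synapses, had no count.

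Most GABA-A genes sit in chromosomal clusters, and the called genes were split between these. On chromosome 15 GABRA5 rose, while GABRG3 in the same cluster had a log2 change of -0.43 ± 0.39. In the chromosome 5 cluster GABRB2 fell, while GABRA6 had a log2 change of -0.13 ± 0.21. In the chromosome 4 cluster GABRA2 was expressed, and GABRG1, GABRA4 and GABRB1 were at trace. On the X chromosome GABRE, GABRA3 and GABRQ were expressed and none passed the threshold.

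**Figure D3:**
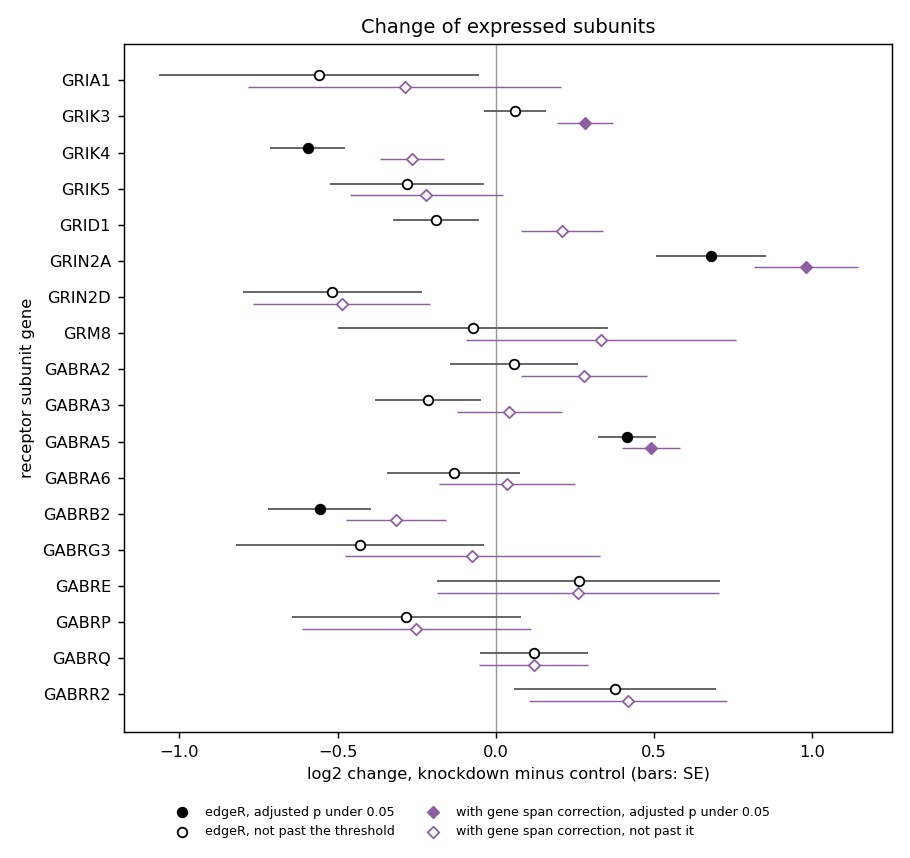
Log2 change (knockdown minus control) of 18 expressed subunits with SE bars, as circles for the edgeR test and diamonds for the same test with a correction for gene span, filled where the adjusted p is under 0.05. With the correction GABRA5 and GRIN2A stay on the higher side, GRIK3 passes the threshold, and GRIK4 and GABRB2 do not.

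Many of these genes are very long, and gene span moved with the direction of change across the whole data set. Among the 554 tested genes that span 300 kb or more, the median log2 change was -0.33, with 40.8% called lower and 1.99% called higher. Among the 2190 genes of 100 to 300 kb the median was -0.11, with 25% lower and 7.08% higher. Among the 3456 genes under 10 kb it was 0.06, with 9.29% lower and 17.7% higher. Of the 9 expressed subunits of 300 kb or more 2 fell (GRIK4, 477 kb, among them), 1 rose (GRIN2A, 429 kb), and their median was -0.32. GABRB2 spans 261 kb and GABRA5 82.8 kb. With each library corrected for span, the log2 change of GRIK4 was -0.27 (adjusted p = 0.0574) and of GABRB2 -0.32 (0.137). Under the same correction GABRA5 was at 0.49 (adjusted p = 0.00129) and GRIN2A at 0.98 (0.000635), while GRIK3 at 0.28 (0.0226) passed the threshold. With this correction none of the 3 falls was called, and both rises were.

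**Figure D4:**
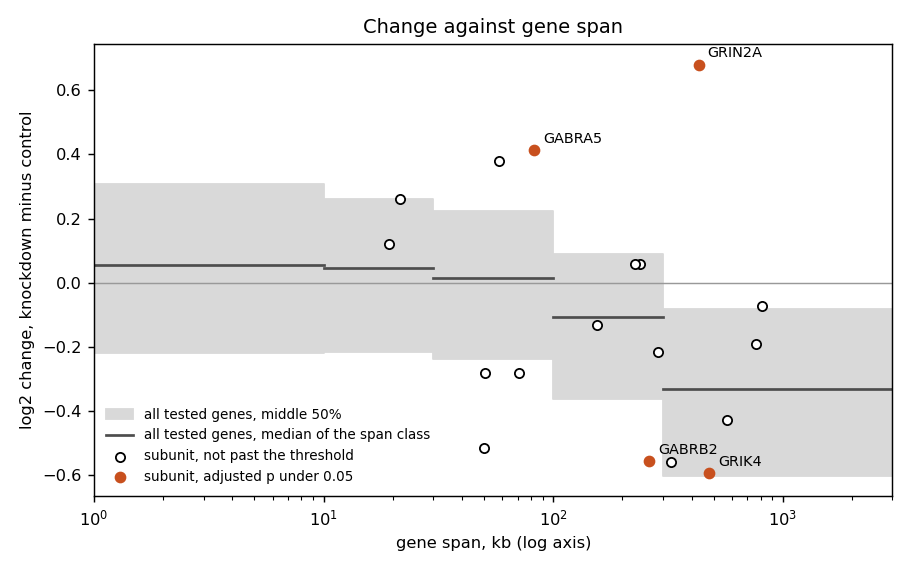
Log2 change against gene span (log axis, kb): grey bands give the middle 50% and dark lines the median of all tested genes in 5 span classes, with the outer classes drawn to the axis limits, and points give 18 expressed subunits (filled where past the threshold). GRIK4, at -0.594, lies just inside the lower edge (-0.601) of the band of the longest class. GABRB2 lies below the band of its class, and GABRA5 and GRIN2A lie above the bands of theirs.

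Genes that assemble, anchor or supply these receptors were followed in 8 lists, chosen with earlier results of these data known. Of 114 genes in the lists 71 passed the filter, and 37 of these were called, 10 higher and 27 lower (52.1% against 31.7% of all genes), with a median log2 change of -0.24. The split was 5 higher and 29 lower with upper-quartile scaling and 15 higher and 22 lower with the gene span correction. Leaving out single libraries gave 2 to 10 higher, the fewest without control 2, and 21 to 31 lower. Auxiliary subunits of AMPA and kainate receptors showed 1 rise and 4 falls of 8 measured (median -0.44), or 62.5% called. CACNG5, an AMPA receptor auxiliary protein, was at 64.5, 76.3 and 92.9 CPM among controls and 34.3, 38.7 and 36.3 CPM after knockdown, so its groups were far apart. It fell 2.13-fold (adjusted p = 4.8e-05). CACNG2 (stargazin), which brings AMPA receptors to the membrane, fell 2.49-fold from 11.3 ± 0.396 to 4.30 ± 1.44 CPM (adjusted p = 0.000201). SHISA9, which spans 339 kb, fell 1.46-fold (adjusted p = 0.0149). Its groups overlapped, with knockdown library 1 at 12.9 CPM and control 1 at 12.3 CPM. NETO2, an auxiliary subunit of kainate receptors, rose 1.24-fold from 110 ± 14.9 to 136 ± 8.11 CPM (adjusted p = 0.0296). NETO2 was the 1 rise of the list.

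Scaffold and trafficking genes of glutamate receptors gave 6 falls and 0 rises of 20 measured (median -0.18). That is 30% called, near the 31.7% of all genes tested, which split into 15.9% lower and 15.9% higher. NSG1, an endosomal protein that sorts AMPA receptors, fell 1.62-fold (adjusted p = 0.000809). DLG2 (PSD-93) fell 2.41-fold to 1.14 ± 0.259 CPM (adjusted p = 0.00312) and DLG4 (PSD-95), which anchors NMDA receptors, 1.45-fold (adjusted p = 0.00793). DLG2 spans 2173 kb, and 40.8% of all tested genes of 300 kb or more were called lower. HOMER2, a scaffold of group I metabotropic receptors, fell 1.22-fold from 163 ± 8.5 to 133 ± 5.04 CPM (adjusted p = 0.0142). Effectors of metabotropic receptors gave 2 rises and 2 falls of 8 (median 0.00), or 50% called. NECAB2, a calcium-binding partner of metabotropic receptors, fell 1.73-fold (adjusted p = 0.00283) and ADCY1, an adenylyl cyclase, 1.33-fold (adjusted p = 0.0112). GNA11, a G protein subunit of the class that group I receptors use, rose 1.19-fold (adjusted p = 0.0264).

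Glutamate transport and synthesis genes gave 2 rises and 6 falls of 11 (median -0.55), so that 72.7% were called against 31.7% of all genes tested. SLC6A9, the glycine transporter GLYT1, fell 1.95-fold (adjusted p = 0.000312) and SLC1A7, the retinal glutamate transporter EAAT5, 1.46-fold (adjusted p = 0.00108). GLUL, glutamine synthetase, was at 2980, 3324 and 3681 CPM among controls and 2268, 2239 and 2167 CPM after knockdown. It fell 1.5-fold with no overlap (adjusted p = 0.00071). GABA metabolism showed 2 falls and 0 rises of 3 measured genes (median -0.43), too few to set against that share. ABAT, the GABA transaminase, fell 1.70-fold (adjusted p = 0.0104) and ALDH9A1 1.23-fold (adjusted p = 0.0115), while ALDH5A1 had a log2 change of -0.43 ± 0.24 (adjusted p = 0.189). The GABA-producing enzymes GAD1 and GAD2 had at most 1 count in any library, and the vesicular transporter SLC32A1 had none.

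Assembly and clustering genes of GABA-A receptors gave 4 rises and 4 falls of 12 (median -0.14), or 66.7% called against 31.7% of all genes tested. TRAK2, a motor adaptor, fell 1.86-fold (adjusted p = 4.49e-05). GABARAPL1, a paralog of the GABA-A receptor-associated protein, rose 1.46-fold (adjusted p = 0.000419), while GPHN (gephyrin), which anchors GABA-A receptors, had a log2 change of -0.14 ± 0.10 (adjusted p = 0.284). Of the metabotropic GABA-B receptor, GABBR2 fell 2.0-fold from 5.90 ± 1.31 to 3.00 ± 0.383 CPM (adjusted p = 0.00259), and GABBR1 was at trace. GABBR2 spans 421 kb, in the class of 300 kb or more where 40.8% of tested genes were called lower. It was the 1 fall of 3 measured in that list (median -0.19), or 33.3%, with adjusted p-values of 0.696 for KCTD8 and 0.916 for KCTD12. Chloride cotransporters, which set the direction of the GABA-A current, gave 1 rise and 2 falls of 6 (median -0.30), or 50% called. SLC12A2 (NKCC1), which imports chloride, rose 1.30-fold from 66.5 ± 4.76 to 86.6 ± 11.6 CPM (adjusted p = 0.0129). SLC12A4 (KCC1), an exporter, fell 1.29-fold (adjusted p = 0.0365), with overlapping groups (knockdown library 1 at 17.3 CPM, control 2 at 16.6 CPM). SLC12A5 (KCC2), the exporter of mature neurons, was at 1.75 ± 0.405 and 1.51 ± 0.394 CPM (adjusted p = 0.605).

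**Figure D5:**
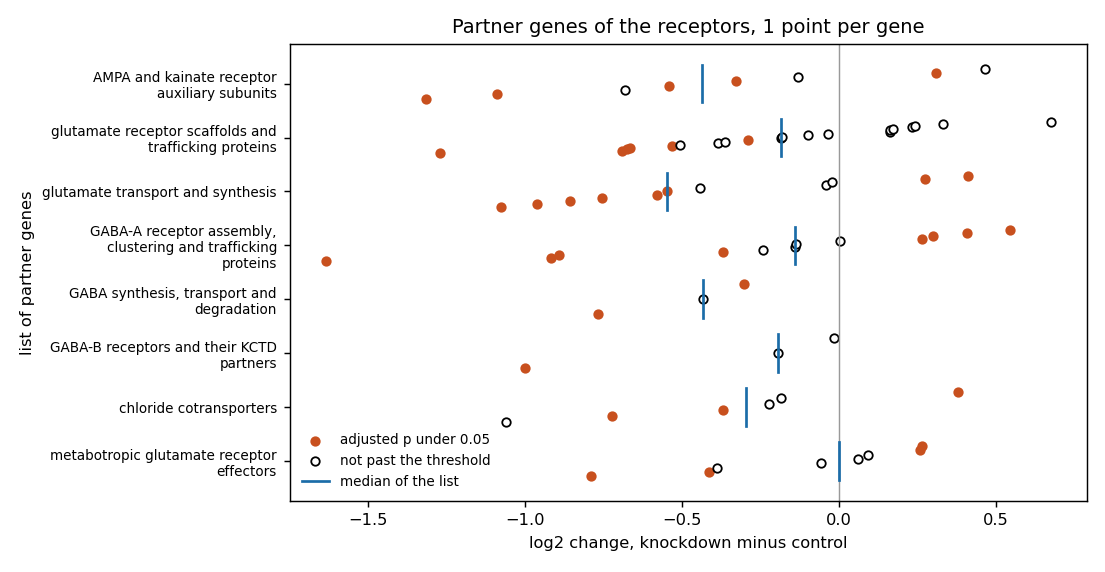
Log2 change (knockdown minus control) of each measured partner gene in the 8 lists, filled where the adjusted p is under 0.05, with a blue bar at the median of each list. Glutamate transport and synthesis has the lowest median, -0.55, and the effectors of metabotropic receptors have a median of 0.00.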

How the data were processed

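Libraries were made with the TruSeq Stranded mRNA kit from RNA of a miRNeasy Micro kit, per the labels. The authors used Trim Galore 0.6.4, STAR 2.7.9a and RSEM with GRCh38.p13, according to the submitters' processing notes. Annotation, strand setting and RSEM version were not given in the sources used here. The deposited files hold whole numbers for 60708 genes, taken as RSEM expected counts that the authors had rounded. RSEM divides reads among the genes they match. No called subunit shares exon bases with another gene of GENCODE 29.

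The 44 pseudoautosomal Y copies were added to X, which left 60664 genes. Positions (1-based), spans, exon lengths and biotypes came from GENCODE 29 (GRCh38). Groups were compared by edgeR 4.0.16 in R 4.3.3, with filterByExpr by group (0.546 CPM in 3 libraries), TMM scaling, the 2-sided quasi-likelihood test without covariates, and Benjamini-Hochberg adjustment across all 14673 tested genes. SE is the size of the log2 change over the square root of F. CPM used TMM-scaled library sizes. In simulated counts for these 14673 genes, 70 of 100 genes changed 1.5-fold and 88 of 100 changed 2-fold were recovered, with 9 false among 167 calls. The changed genes all had a mean above 1 CPM and were a far smaller part of all genes than the 31.7% called here. These rates therefore do not carry over to the 6 expressed subunits with a control mean under 1 CPM. Replicate libraries differed beyond sampling noise, with a chi-square of 2.81 to 16.5 for each degree of freedom.

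The subunits and lists were chosen with earlier results of these data known. Some genes are not reported here. The other expressed subunits are named, and from each list those reported of the 3 measured genes with the smallest adjusted p, plus partners of single receptors (NETO2, HOMER2, CBLN1, GPHN, SLC12A5) chosen after their values were seen. Promoters are RefSeq windows on GRCh38.p14, and motifs, ratios and windows were picked with results known. Alternatives were RLE and upper-quartile scaling, other low-count filters, DESeq2 1.42.0, limma-voom (limma 3.58.1), a replicate block, a loess correction for gene span, leaving out each library, and other lengths for family shares.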

Additional observations from a re-analysis of the deposited data

How the results depend on the processing

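With the gene span correction 4 receptor subunits were called higher and 0 lower, against 2 and 3, and likewise 4 and 0 with the replicate block and span correction together. Leaving out 1 library gave 1 to 2 higher (1 without knockdown library 3) and 2 to 3 lower. Of all genes 4657 were called, with a range of 2704 to 5114 when 1 library was left out (2704 without control 2, 2891 without control 3). Of partner genes 10 were called higher, against 5 with upper-quartile scaling, 6 without a low-count filter, 16 with the replicate block and span correction, and 2 to 10 without 1 library (2 without control 2, 5 without control 3, 4 and 3 when knockdown library 1 or 3 was dropped). The replicate block alone gave 4742 calls over all genes and left all 22 subunit calls the same. Same-numbered libraries had correlated deviations of 0.03, 0.096 and -0.03, so the numbers were not taken as pairs, and not every library correlated best with its own number.

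Of 264 values of 18 subunits under alternatives, 235 kept direction and side of the threshold, 10 lost the call, 2 gained it and 17 changed sign. All sign changes were of subunits not called in the first test. With the span correction, alone and with the replicate block, the log2 change was 0.043 and 0.029 for GABRA3, 0.034 and 0.049 for GABRA6, 0.21 and 0.22 for GRID1, and 0.33 and 0.39 for GRM8. GABRG3 was at 0.014 with both together. GABRA2 was at -0.0015 with upper-quartile scaling, and GRM8 at 0.022 in limma-voom. Leaving out each library in turn gave -0.070 to 0.18 for GABRA2, -0.069 to 0.53 for GABRE, -0.0013 to 0.13 for GRIK3 and -0.38 to 0.28 for GRM8. The causes of these shifts were not tested.

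Family shares moved with the length used. Without division by length the control and knockdown shares were 82.7% and 87.6% for GABRA5, 93.5% and 93.2% for GABRR2, 77.4% and 88.4% for GRIN2A, and 56.9% and 67.2% for GRIK3. With the longest transcript they were 76.2% and 79.1% for GABRQ and 44.6% and 55.4% for GRIK3, and the knockdown share of GABRA5 was 89%.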

Other observations

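Subunits at trace were tested only in edgeR without the low-count filter, where 36 of the 45 subunits entered and the same 5 were called. Among them GRIN2B (unadjusted p = 0.0189, adjusted p = 0.0888) and GRIN1 (0.0377 and 0.149) were lower after knockdown without passing the threshold. GRIN1 and GRIN2B, which encode partners of the GRIN2A subunit in NMDA receptors, thus had values opposite in direction to GRIN2A, at no more than 12 counts in any library. GRIN2C, also at trace, had the direction of GRIN2A in the same fit (log2 change 0.35, adjusted p = 0.701). GRIN3B was at -0.05 (adjusted p = 0.979).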
